A study of Mus musculus with 6 samples.

Results

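The mitochondrial ribosomal protein genes are the nuclear genes whose symbols begin with *Mrpl* (large subunit) or *Mrps* (small subunit). They were taken from the count table by symbol, protein-coding genes only, which gave 78 of 55414 genes, 49 named for the large and 29 for the small subunit, and 5 pseudogenes with such names were left out. The table holds mRNA counts of cells sorted from the trunk of mouse embryos at E10.5, in 3 WT libraries (Pdx1-Cre+, Tdtomato+, miR-302WT) and 3 KO libraries (Pdx1-Cre+, Tdtomato+, *mir-302* knockout). Both groups carry the *Pdx1-Cre* transgene and the *Rosa26* LSL-tdTomato reporter, and come from matings of heterozygous *mir-302*+/- parents. *Pdx1-Cre* only marks the cells that were sorted. The *mir-302* deletion is in the germline, so every cell of a KO embryo lacks the cluster. The sources do not say whether a library holds 1 embryo or several, so p-values measure the spread between libraries.

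The mitochondrial ribosome sits in the mitochondrial matrix and translates the few messages of the mitochondrial genome, which encode core subunits of the respiratory chain and of ATP synthase. Its RNAs are transcribed from mitochondrial DNA, with *mt-Rnr2* in the large and *mt-Rnr1* in the small subunit, whereas all of its proteins are made in the cytosol from nuclear genes and imported. Some of these proteins have relatives in the bacterial ribosome and others were added during the evolution of mitochondria. The number of mitochondria and their use change as stem cells and progenitors differentiate. Members of the *mir-302* family are best known from pluripotent stem cells and early embryos.

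Library totals ran from 17352498 to 26634523 counts. *Pdx1*, the transcription factor whose promoter drives Cre, was present in all 6 libraries at 73.1 to 108 CPM (counts scaled to the effective size of the library), beside *Sox9* at over 100 CPM. Cells of other kinds differed between libraries more than between genotypes. The 8 blood markers, mostly embryonic and adult hemoglobins, took 1.58% of counts in WT replicate 3, 0.643% in KO replicate 1, 0.0332% in KO replicate 3 and 0.000314% or less in the others. The 8 mesenchyme markers ranged from 0.013% to 0.12%, with the collagens *Col1a1* and *Col3a1* at 0 in KO replicate 2, and the liver gene *Afp* ranged from 102 to 1347 CPM. The part of these cells in the results was not tested. In such bulk samples, fewer cells of a type and less RNA per cell cannot be told apart. The *mir-302* cluster genes had no count in any library, apart from 2 counts of *Mir302d* in KO replicate 3, and since poly(A)-primed libraries do not capture mature miRNAs, these counts do not check the genotype labels. Where values of single libraries follow, they are in the order of replicates 1, 2 and 3.

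The mitochondrial ribosomal protein messages as a whole were at nearly the same level in KO and WT cells. Of the 78 genes, 77 passed the filter on low counts, and they are the genes described from here on unless stated otherwise. Together the 78 took 0.512%, 0.47% and 0.463% of the counts in the WT libraries, compared with 0.483%, 0.497% and 0.446% in the KO libraries. The groups overlapped, with means of 0.482% ± 0.027 (SD, n = 3) in WT and 0.475% ± 0.026 (SD, n = 3) in KO. No gene of the table passed edgeR's quasi-likelihood test at a Benjamini-Hochberg adjusted p under 0.05, so 0 of the 77 members and 0% of the 16353 genes tested were called. At an unadjusted p under 0.05, 1 member was higher in KO, against 6.42% of all genes, and 0 were lower, against 3.97%. DESeq2 called 1 member higher, against 4.2% of the 14489 genes to which it gave an adjusted p, and 0 lower, against 0.642%. The single member is the same in each of these counts, *Mrps30*.

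The members also differed little among themselves. Their median log2 fold change (KO against WT) was -0.026, beside -0.025 for all genes tested, with 28 members above 0 and 49 below. The middle 50% lay between -0.11 and 0.031 for the members and between -0.19 and 0.15 for all genes. In 70 of 77 members the estimate was within 0.2 of 0 on the log2 scale, compared with 9049 of 16353 genes. The spread between libraries of one genotype was also narrower, with a median SD of 0.117 on the log2 scale for the members and 0.233 for all genes. Members have higher counts than most genes, from 62 to 5217 per library with a median of 1173, and 72 of the 77 were above the median WT level of all genes tested. The 95% interval of the log2 fold change lay wholly between -0.5 and 0.5 for 69 members and between -1 and 1 for 76, the exception being *Mrps30*. A change smaller than these intervals was not detectable with 3 libraries a group.

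**Figure D1:**
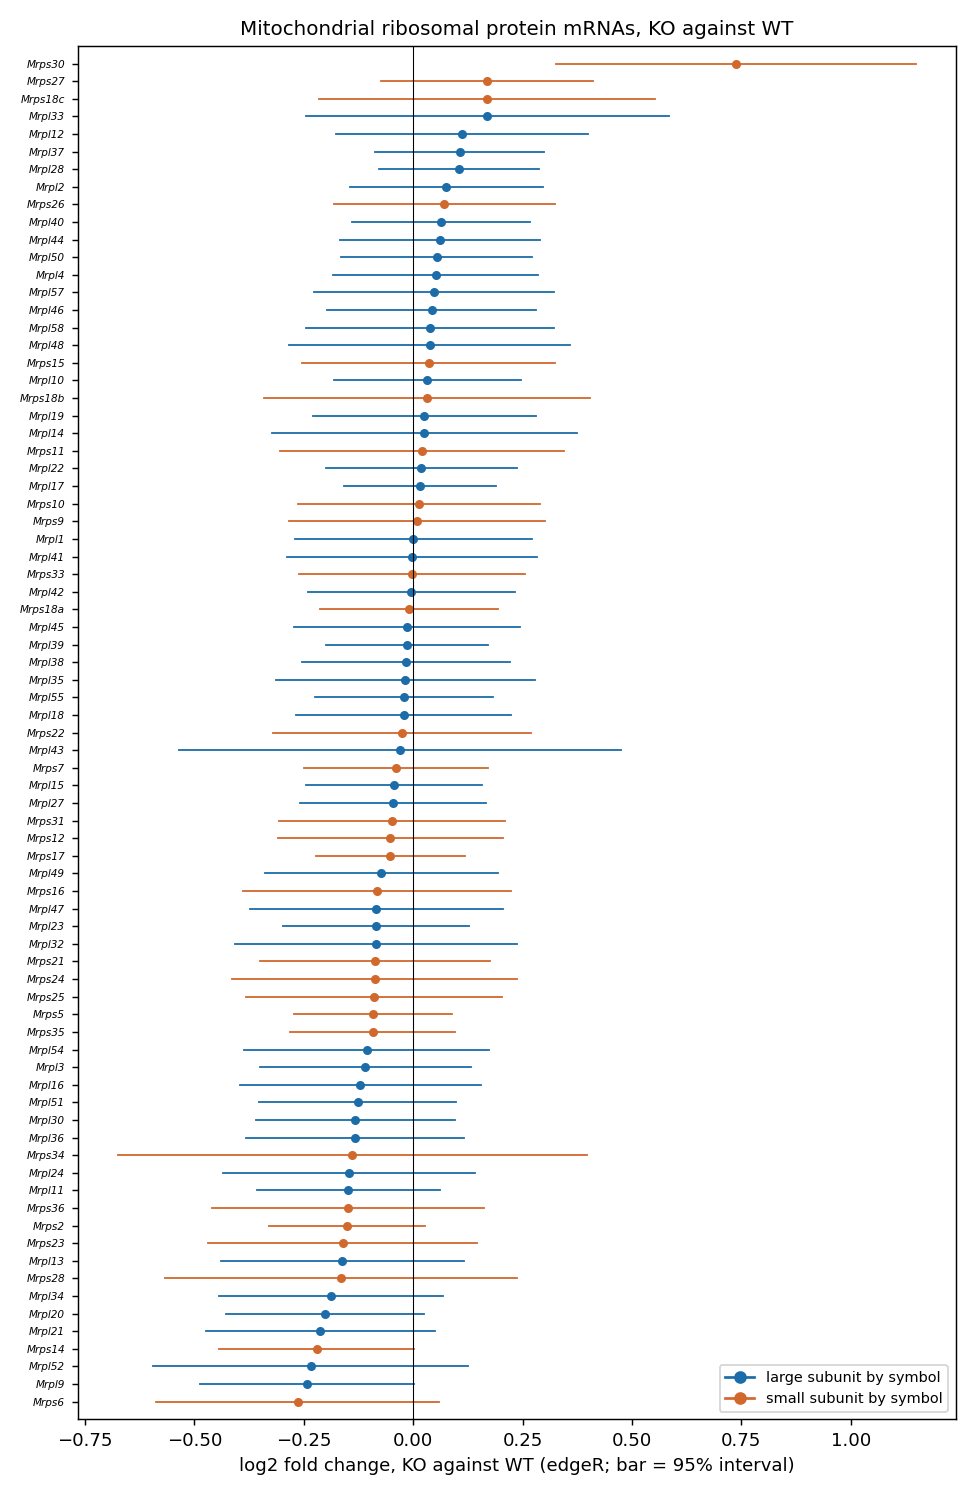
Log2 fold change of each of the 77 tested mitochondrial ribosomal protein messages, KO against WT, ordered by size, with 95% intervals from edgeR (3 libraries a group) and colours for the subunit in the symbol. All members but *Mrps30* at 0.74 lie between -0.26 and 0.17, and its interval is the only one that leaves out 0.

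The large and the small subunit were close to each other. The median log2 fold change was -0.017 over 48 large subunit genes, 19 above 0 and 29 below, and -0.052 over 29 small subunit genes, 9 above and 20 below, a difference of 0.035. Without WT replicate 1 this difference was 0.00069, and without WT replicate 3 and KO replicate 1 it was 0.065. Within each library, the median deviation of the large subunit genes less that of the small ones was 0.0017, -0.0014 and 0.013 (log2) in WT and -0.015, -0.019 and 0.072 in KO. WT values lay inside the KO range, and KO replicate 3 was the most separate. Summed CPM of the large subunit genes was 2.09 to 2.16 times that of the small subunit genes in all 6 libraries. The symbols follow an older scheme in which *Mrps30* and *Mrps18a* are named for the small subunit, although structures place both proteins in the large one. With only these 2 genes moved to the large subunit, the medians were -0.016 over 50 large and -0.052 over 27 small subunit genes. All other genes were kept as ribosomal proteins of the subunit that their symbol names.

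Medians were below 0 both for genes with a bacterial relative and for genes particular to mitochondria, as for all genes tested (-0.025). The 30 large subunit genes with a bacterial relative had a median log2 fold change of -0.045 and the 20 tested mitochondrial ones -0.0035. In the small subunit the medians were -0.068 over 16 and -0.049 over 11 genes. All 4 values are smaller than the difference between the highest and lowest library of either genotype in the median deviation of all members, which was 0.109, -0.029 and -0.013 (log2) in WT and -0.021, 0.043 and -0.073 in KO.

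*Mrps30* was the member with the clearest difference. Its protein, named mL65 in the scheme based on structures, is particular to mitochondria and is related to *Mrpl37*, another protein of the large subunit. *Mrps30* was at 25.6, 33.8 and 21.9 CPM in WT and at 47.9, 44.0 and 43.5 CPM in KO. The groups did not overlap, and the KO libraries were closer to each other than the WT libraries. Means were 27.1 ± 6.09 CPM (SD, n = 3) in WT and 45.1 ± 2.40 CPM in KO, and the log2 fold change was 0.74 (SE 0.18, 95% interval 0.33 to 1.15), or 1.67-fold. The edgeR p was 0.0037 and the Benjamini-Hochberg adjusted p 0.164, so the difference did not pass. DESeq2 gave 0.76 with an adjusted p of 0.00234, which passes. Without WT replicate 2, the highest WT library, edgeR's adjusted p was 0.0459. Without WT replicate 3 and KO replicate 1, which hold most of the hemoglobin counts, the log2 fold change was 0.58 with an adjusted p of 1.00. Its relative *Mrpl37* was at 142, 130 and 135 CPM in WT and 159, 138 and 141 CPM in KO, which overlap, with a log2 fold change of 0.11 (SE 0.082).

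The most GC-rich stretch of 200 bases in a *Mrps30* transcript had 75% GC. Over the 3635 tested genes with a stretch of 75% GC or more, the median log2 fold change was 0.13, and 797 of them had an unadjusted edgeR p under 0.05 and were higher in KO. For the 10210 other genes with a coding transcript these values were -0.043 and 199. Only 4 of the 78 members (5.13%) reached 75%, compared with 19.2% of protein-coding genes. The other 3 were *Mrpl40* at 0.064, *Mrpl48* at 0.037 and *Mrps24* at -0.088 on the log2 fold change scale, and each had an unadjusted edgeR p over 0.05. The part of GC content in the *Mrps30* value was not tested. *Mrps30* shares 9.35% of its exon bases with the non-coding gene *B430218F22Rik*, which had 1 to 3 counts in each library.

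All KO libraries lay above all WT libraries for 1 member, *Mrps30* (8.36% of all genes), and below them for 7 members, or 9.09% of 77 (7.99% of all genes). The 7 were *Mrpl9*, *Mrpl20*, *Mrpl21* and *Mrpl24* of the large and *Mrps2*, *Mrps6* and *Mrps14* of the small subunit. A share this near the background is not a result about the members. *Mrpl9*, whose bacterial relative binds ribosomal RNA, was at 58.4, 63.3 and 60.2 CPM in WT and 50.3, 47.0 and 56.4 CPM in KO. Its log2 fold change was -0.24 (SE 0.10) with an edgeR Benjamini-Hochberg adjusted p of 0.482. *Mrps14*, a protein of the small subunit head, was at 85.4, 78.7 and 75.6 CPM in WT and 74.8, 66.1 and 64.7 CPM in KO. These libraries lay apart by less than 1 CPM at the nearest pair. The log2 fold change was -0.22 (SE 0.095, adjusted p 0.483, edgeR). The lowest estimate of any member was that of *Mrps6*, at -0.26 (SE 0.14), from 24.2, 26.8 and 24.9 CPM in WT to 23.7, 19.9 and 19.4 CPM in KO.

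The remaining members of lowest p on each side of 0 passed neither test. In the large subunit these were *Mrpl20* (log2 fold change -0.20), *Mrpl21* (-0.21), *Mrpl34* (-0.19) and *Mrpl11* (-0.15) on the lower side. On the higher side were *Mrpl28* (0.10), *Mrpl37* (0.11), *Mrpl33* (0.17), *Mrpl12* (0.11) and *Mrpl2* (0.076). In the small subunit they were *Mrps2* (-0.15), *Mrps23* (-0.16) and *Mrps5* (-0.092) on the lower side and *Mrps27* (0.17), *Mrps18c* (0.17), *Mrps26* (0.071) and *Mrps15* (0.035) on the higher side. The unadjusted edgeR p of each of these members was over 0.05.

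**Figure D2:**
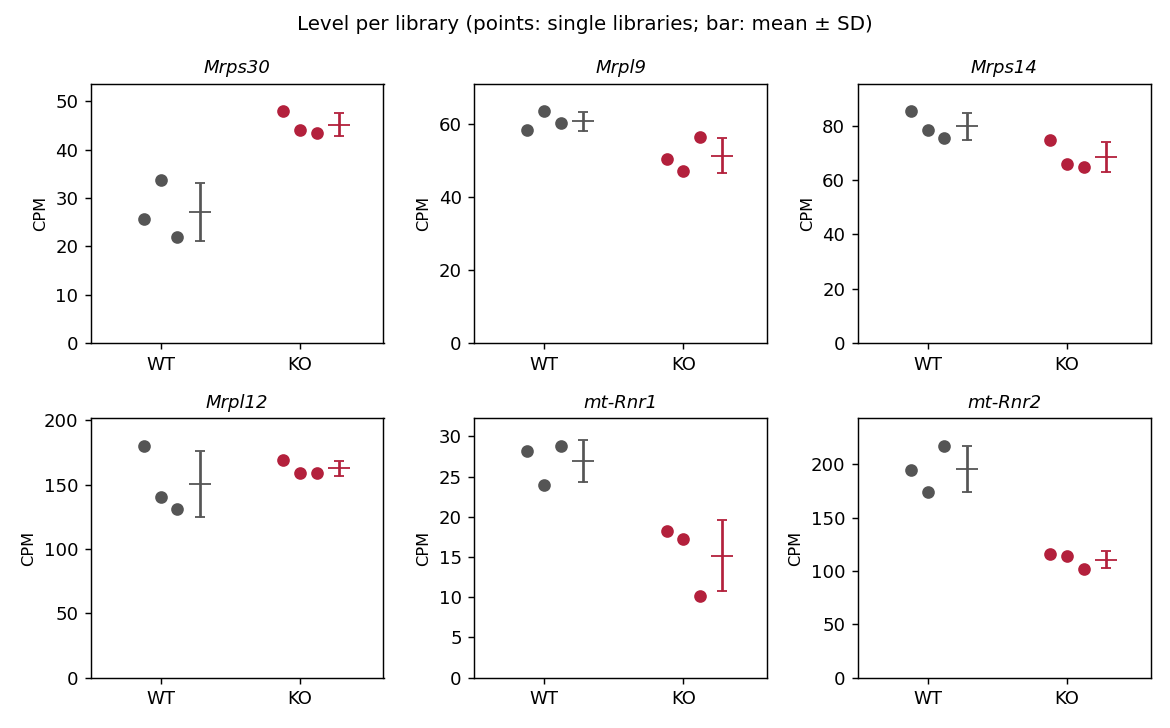
CPM in each library of 4 mitochondrial ribosomal protein genes and of both mitochondrial ribosomal RNAs, with points for single libraries and bars for the mean ± SD (n = 3). *Mrps30* is higher in every KO library and both RNAs are lower in every KO library, while *Mrpl12* overlaps.

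Apart from *Mrps30*, the members named here for a special role did not pass either test. *Mrpl12* and *Mrpl10* form the stalk of the large subunit, which recruits translation factors. *Mrpl12* was at 180, 140 and 131 CPM in WT and 169, 159 and 159 CPM in KO. The KO values lay inside the WT range. *Mrpl10* had a log2 fold change of 0.033 (SE 0.091). *Mrpl58*, which is also a peptide release factor for stalled ribosomes, had 0.039 (SE 0.12), and *Mrpl45*, which faces the inner membrane at the exit of the peptide tunnel, had -0.014 (SE 0.11). *Mrps12*, of the decoding site, had -0.052 (SE 0.11), and *Mrpl3*, near the peptidyl transferase centre, had -0.11 (SE 0.10).

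The paralogs *Mrps18a*, *Mrps18b* and *Mrps18c* are related to one bacterial protein and occupy different places in the ribosome. *Mrps18a* and *Mrps18b* were nevertheless counted above among the genes particular to mitochondria, as the list used here has them. Their levels differed far more than their changes. Per kilobase of the longest coding transcript, *Mrps18a* was at 90.5, 80.6 and 84.0 CPM in WT, *Mrps18b* at 13.2, 12.2 and 12.7 and *Mrps18c* at 14.1, 14.2 and 13.9. *Mrps18a* was above both paralogs in every library. On the log2 fold change scale the differences were -0.0093 (SE 0.087), 0.031 (SE 0.16) and 0.17 (SE 0.16). *Mrps18b* shares 30.5% of its exon bases with another gene and *Mrps18c* 23.2%, so their levels are less certain.

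Levels per kilobase in WT ranged from 3.69 to 229 CPM over the tested members, with a median of 37.0. *Mrpl42* was highest, at 256, 219 and 212 CPM per kilobase, followed by *Mrpl28* at 155, 163 and 159. These lay apart in every library. Among the genes named for the small subunit the highest were *Mrps21* at 121, 116 and 110, *Mrps18a* (above) and *Mrps12* at 75.6, 74.5 and 64.5 CPM per kilobase. The values of *Mrps21* and *Mrpl12* (137, 107 and 99.8) overlapped. The lowest tested members named for the large subunit included *Mrpl47* at a mean of 7.64 and *Mrpl43* at 3.57, 3.32 and 4.17 CPM per kilobase. Among those named for the small subunit the lowest were *Mrps25* at 10.7, 8.60 and 8.50, *Mrps30* at 7.71, 10.2 and 6.60 and *Mrps34* at 5.08, 4.38 and 5.29 CPM per kilobase. *Mrps25* and *Mrps30* overlapped with each other. The order of levels was almost the same in every library, with Spearman correlations over the 77 genes of 0.988 to 0.994 within a genotype and 0.986 to 0.992 between genotypes. All libraries share the gene lengths, which set part of this order.

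Exon bases shared with another gene were found for 33 of 78 members (42.3%), compared with 29.9% of protein-coding genes, and the lowest levels include such genes. *Mrpl53* failed the filter, with 1 count in WT replicate 1 and 0 elsewhere, and 88.0% of its exon bases are shared with *Gm42688* and *Ccdc142os*. A count of 0 allows up to 3 counts. *Mrps34* shares 77.8% with *Mapk8ip3* and *Nme3*, *Mrps25* 69.8% with *Nr2c2*, and *Mrpl43* 33.4% with *Twnk*. How reads in shared exons were counted is not given in the sources used here, so the low levels of these genes are uncertain. Their KO against WT values use the same exons in both groups, and were -0.14 (SE 0.23) for *Mrps34*, -0.089 (SE 0.13) for *Mrps25* and -0.030 (SE 0.22) for *Mrpl43* on the log2 scale. Processed copies also exist, and *Mrpl23-ps1* held 16.3 to 23.0 CPM, so reads of *Mrpl23* and *Mrps36* may be split between the gene and its copies. The length used also matters. Per kilobase of all exons joined, *Mrpl42* was at 41.4 CPM, and the order by both lengths had a Spearman correlation of 0.809 across genes.

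**Figure D3:**
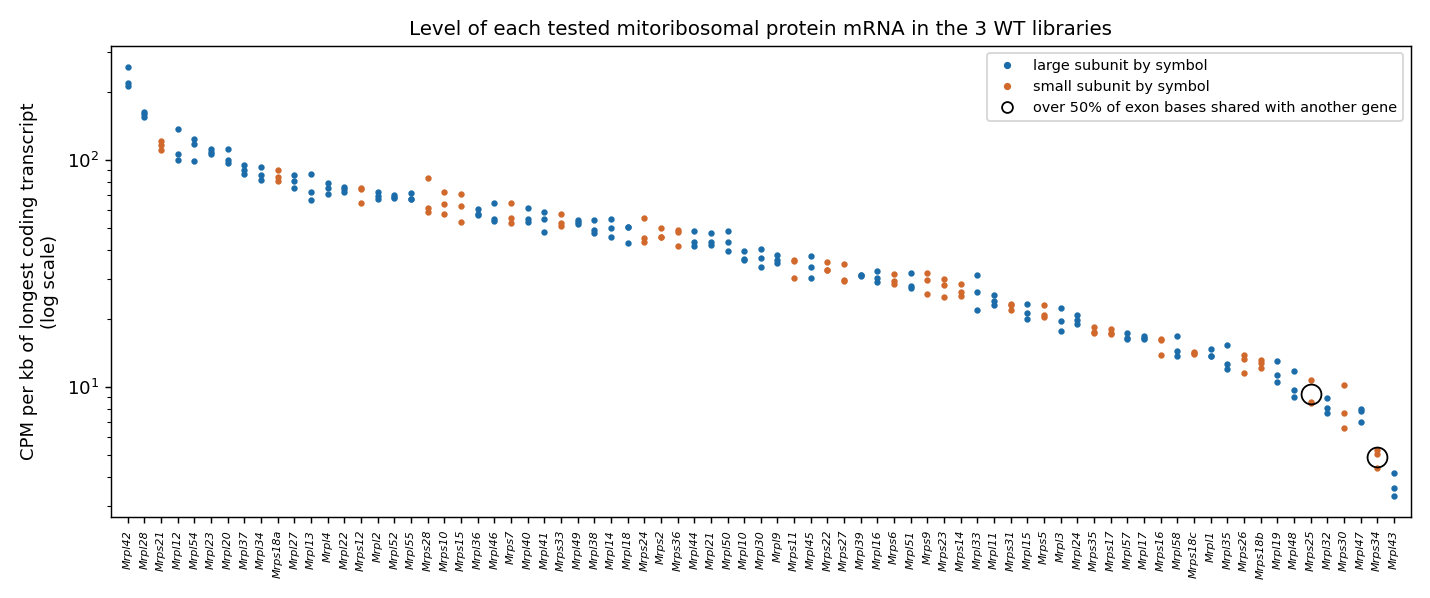
CPM per kilobase of the longest coding transcript (log axis) of the 77 tested members in the 3 WT libraries, ordered by their mean, with colours for the subunit in the symbol. Circles mark the tested members that share over 50% of exon bases with another gene, *Mrps25* and *Mrps34*, both near the low end.

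Mitochondrial ribosomal proteins whose symbols follow other schemes behaved in the same range. *Dap3* was at 106, 98.5 and 101 CPM in WT and 99.3, 110 and 101 CPM in KO, with a log2 fold change of 0.022 (SE 0.076). The groups overlapped. *Ptcd3* (0.043), *Chchd1* (-0.12), *Aurkaip1* (0.023) and *Gadd45gip1* (0.12) also overlapped, and 0 of these 5 had an unadjusted edgeR p under 0.05 or a DESeq2 call. *Gadd45gip1* was at 1.19 ± 0.114 CPM (SD, n = 3) in WT.

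The RNAs of the mitochondrial ribosome were at lower levels in every KO library. *mt-Rnr2* was at 195, 174 and 217 CPM in WT and at 116, 114 and 102 CPM in KO. *mt-Rnr1* was at 28.2, 24.0 and 28.8 CPM in WT and at 18.2, 17.2 and 10.2 CPM in KO. Neither gene overlapped between the groups. The log2 fold changes were -0.82 (SE 0.10) and -0.83 (SE 0.23). With edgeR's Benjamini-Hochberg adjusted p these did not pass (0.132 and 0.223), and with DESeq2 they did (4.9e-07 and 0.0234). The summed CPM of the 78 members was 23.1, 23.7 and 19.0 times that of both RNAs in WT and 35.8, 37.5 and 40.5 times in KO, without overlap. The cDNA was primed on poly(A), so these ratios describe captured RNA and not the makeup of the ribosome, and reads from nuclear copies of mitochondrial DNA may be included. No transcript of the 78 members shares a run of 25 bases with either RNA.

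The messages that this ribosome translates were lower as well. All 13 had a log2 fold change below 0, with a median of -0.66. At an unadjusted edgeR p under 0.05, 12 were lower, against 3.97% of all genes, and 0 passed after adjustment. DESeq2 called 10 lower, against 0.642% of all genes. *mt-Nd6* (-0.35, SE 0.26) overlapped between the groups. *mt-Co3*, of cytochrome oxidase, had -0.97 (SE 0.20) and *mt-Nd4*, of the first respiratory complex, -0.79 (SE 0.10). The cytosolic ribosomal protein genes, which build the other ribosome of the cell, had a median of -0.25 over 81 tested genes, with 78 below 0. At an unadjusted edgeR p under 0.05, 34 were lower, and DESeq2 called 2 lower, to be read against the same shares of all genes. None of these 3 groups was compared with the members by a test.

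**Figure D4:**
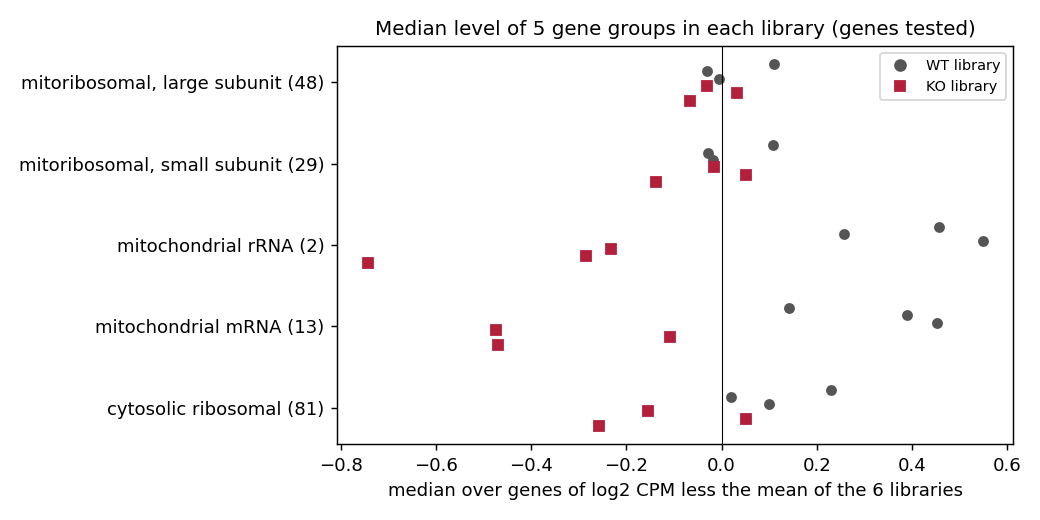
Median over genes of the log2 CPM less its mean over the 6 libraries, for 5 groups of genes with the number tested in brackets, in each WT (circle) and KO (square) library. Both subunits of the mitochondrial ribosome overlap between genotypes, while mitochondrial RNAs are lower in every KO library and the cytosolic ribosomal genes overlap in KO replicate 2.

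Other nuclear genes of mitochondrial translation were counted from hand-written lists. Of 28 genes for assembling the mitochondrial ribosome, 1 was higher at an unadjusted edgeR p under 0.05, *Rcc1l* (0.56, SE 0.21), and 0 were lower, with a median log2 fold change of -0.026. These counts are to be read against the 6.42% of all genes higher and 3.97% lower at that level. Of 14 tested translation factors, 0 were higher and 1 was lower, *Oxa1l* (-0.31, SE 0.10), which inserts new proteins into the inner membrane. Of 20 genes for charging mitochondrial transfer RNAs, 2 were higher and 1 was lower at that level. Their median log2 fold change was 0.045, and 16 of the 20 lay within 0.2 of 0. DESeq2 called 1 higher, against 4.2% of all genes, and 1 lower, against 0.642%. Among these 20 genes, *Yars2* had a log2 fold change of 0.87 (SE 0.24) and *Lars2* of -0.47 (SE 0.070). DESeq2 called *Yars2* (adjusted p 0.00631) and *Lars2* (adjusted p 0.000669), and edgeR's adjusted p was 0.217 and 0.132.

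The KO cells lack *mir-302*, whose members pair through bases 2 to 8 at the 5′ end with matching sites in 3′UTRs. The family members of the reference table that show this seed have it in capitals (RefSeq, GRCm38.p6, chr3:127545275-127545297 and chr3:127545665-127545687, both on the plus strand).
miR-302b-3p: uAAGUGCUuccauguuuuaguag
miR-302d-3p: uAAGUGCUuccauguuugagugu

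A site was counted where a 3′UTR matched bases 2 to 8 in full, or all of them but base 8 with an A after the match. Such a site was found in the longest annotated 3′UTR of 12 of 78 members (15.4%), compared with 3720 of 20966 protein-coding genes (17.7%). *Mrpl30*, *Mrpl32* and *Mrps26* had only the second kind, which lacks the full seed match. The share of protein-coding genes includes both kinds too. The longest kind of match, of 8 bases, was in *Mrpl19* and *Mrpl48*, shown with the site in capitals and taken from GENCODE transcripts of build GRCm38, minus strand, at chr6:81957929-81957936 and chr7:100548593-100548600.
Mrpl19: aacaaccaaaaAGCACTTActctcccctta
Mrpl48: cctgtacgttcAGCACTTAggaggtggagg

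Both of these genes overlapped between the groups. *Mrpl19* was at 65.0, 52.4 and 56.6 CPM in WT and 61.4, 59.0 and 56.7 CPM in KO, and *Mrpl48* at 50.3, 41.6 and 38.8 CPM in WT and 42.7, 49.0 and 42.5 CPM in KO. The log2 fold changes were 0.025 (SE 0.11) and 0.037 (SE 0.14). The 12 genes with a site had a median of -0.087, with 3 above 0 and 9 below, and the 65 tested genes without one -0.018. *Mrps30* has no site. A match of letters is a description and does not show that a site is used.

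The promoters of the members share letters known from housekeeping and mitochondrial genes. Promoters of RefSeq (GRCm38.p6), 250 bases before to 50 after the start, were found for 69 members and searched on both strands for CGCATGCG (the core of the NRF1 motif), CCGGAAG (ETS) and AAGATGGC (YY1), none of which contains another. The NRF1 letters were in 7 members (10.1%, compared with 2.9% of 16500 protein-coding genes), the ETS letters in 26 (37.7%, 13.4%) and the YY1 letters in 12 (17.4%, 3.63%). At least 1 of the 3 was in 38 members (55.1%, 18.3%). The 250 bases before the start are printed for *Mrps30*, the member with the clearest difference, which holds none, and for *Mrpl32* and *Mrpl22*, each with more than 1 match, in capitals. Their positions are chr13:118387253-118387502 and chr13:14613038-14613287 on the minus strand and chr11:58171414-58171663 on the plus strand.
Mrps30: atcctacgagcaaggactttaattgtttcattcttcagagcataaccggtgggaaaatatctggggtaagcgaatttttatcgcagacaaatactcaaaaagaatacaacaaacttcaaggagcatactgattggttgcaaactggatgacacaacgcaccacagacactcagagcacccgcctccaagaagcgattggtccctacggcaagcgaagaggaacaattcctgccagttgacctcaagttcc
Mrpl32: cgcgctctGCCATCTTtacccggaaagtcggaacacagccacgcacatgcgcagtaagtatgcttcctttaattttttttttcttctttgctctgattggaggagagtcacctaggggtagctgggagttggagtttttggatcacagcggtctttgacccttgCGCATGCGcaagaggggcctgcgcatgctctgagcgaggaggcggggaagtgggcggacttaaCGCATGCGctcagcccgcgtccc
Mrpl22: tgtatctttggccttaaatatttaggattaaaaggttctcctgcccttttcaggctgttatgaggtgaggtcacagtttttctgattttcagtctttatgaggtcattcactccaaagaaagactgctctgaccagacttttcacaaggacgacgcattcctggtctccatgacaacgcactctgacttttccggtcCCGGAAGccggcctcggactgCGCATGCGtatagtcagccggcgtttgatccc

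In *Mrpl32* the NRF1 letters begin 86 and 23 bases before the start and the YY1 letters, on the opposite strand, 242 bases before it. In *Mrpl22* the ETS letters begin 53 and the NRF1 letters 32 bases before the start. *Mrpl22* was at 54.9, 53.7 and 52.0 CPM in WT and 57.1, 54.1 and 51.5 CPM in KO, and *Mrpl32* at 23.1, 27.0 and 24.5 CPM in WT and 25.1, 24.1 and 21.0 CPM in KO. Both overlapped between the groups. The 37 tested members with a match had a median log2 fold change of -0.022 and the 31 without -0.021.

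The members lie on 17 chromosomes, and the chromosomes with the highest numbers are 11 with 11 genes and 17 with 8. A start of another protein-coding gene on the opposite strand within 1000 bases was found for 23 of 78 (29.5%), compared with 8.6% of 21876 protein-coding genes. *Mrps12* is paired in this way with *Sars2*, a mitochondrial transfer RNA synthetase, and *Mrpl36* with *Ndufs6*, of the respiratory chain. Starts were taken at the outer ends of genes, and pairs whose starts overlapped by more than 300 bases were not counted. *Mrpl46* and *Mrps11*, on opposite strands with shared exon bases, were not counted as a pair by this rule. The 23 genes had a median log2 fold change of -0.039 and the 54 tested others -0.024. Their longest coding transcripts were short, with a median over the 78 members of 1327.5 bases, compared with 2688 for protein-coding genes.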

How the data were processed

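Reads of SMART-seq v4 and Nextera XT libraries were aligned by the authors to GRCm39 with STAR and counted on genes with GenomicAlignments, and the deposited counts are whole numbers per gene without normalization. Handling of strand and of shared exons is not given in the sources used here. Groups and replicate numbers come from the labels. Symbols were matched for 94% of 55414 identifiers. From the counts, 16353 genes kept by filterByExpr were fitted in edgeR 4.0.16 (R 4.3.3) by glmQLFit and glmQLFTest on TMM-scaled libraries, with a term for genotype, and calls were made at a Benjamini-Hochberg adjusted p under 0.05. Standard errors come from the F statistic, on 4 residual and 3.26 prior degrees of freedom. CPM use TMM factors. DESeq2 1.42.0 and the other settings given at the end were alternatives. The fits were run on simulated counts with the same spread setting for every gene. The planted changes were larger than any estimate of a member, so that run does not bear on changes of the size seen here. Lengths, 3′UTRs, exon overlaps and GC content come from GENCODE M21 (GRCm38), and promoters and miRNAs from RefSeq (GRCm38.p6). The members and all lists were chosen with earlier results of these data known. Genes named are, in each subunit, the 5 with the smallest p in each direction, those DESeq2 called, the 3 highest and 3 lowest per kilobase, those of special roles and those that failed the filter. *Rcc1l*, *Oxa1l*, *Yars2*, *Lars2*, *mt-Co3*, *mt-Nd4* and the genes shown for sequence, GC content or neighbours were added after their values were seen. Library totals of 17352498 to 26634523 counts limit the precision of low genes. Some results on listed genes are not reported here.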

Additional observations from a re-analysis of the deposited data

How the results depend on the processing

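The medians and counts were recomputed with DESeq2, RLE and upper-quartile factors, without the filter, with the other setting of glmQLFit's estimate, with the replicate number as a block and without single libraries. At an adjusted p under 0.05, DESeq2 called 1 member and leaving out 1 library gave 0 to 1, the 1 being *Mrps30* without WT replicate 2. Over all genes, calls rose from 0 to 701 with DESeq2, 264 without the filter and 217 without WT replicate 2, and the cause was not tested. At an unadjusted p under 0.05, members higher in KO numbered 1 to 3 when 1 library was left out (3 without WT replicate 1, 2 without KO replicate 3), and members lower in KO 0 to 1 (1 without any single KO library). Upper-quartile factors and the other glmQLFit setting each gave 1 lower member. The median log2 fold change of all members ran from -0.047 to 0.040 without 1 library, above 0 at 0.014 without WT replicate 1 and 0.040 without KO replicate 3. That of the large subunit ran from -0.033 to 0.047, the latter without KO replicate 3. That of the small subunit ran from -0.057 to 0.016, above 0 at 0.014 without WT replicate 1 and 0.016 without KO replicate 3, and large less small ran from 0.00069 to 0.043. The replicate block gave a member median of -0.031 and 1 lower member. Same-numbered libraries deviated with correlations of -0.211, 0.251 and 0.078, and WT replicates 1, 2 and 3 correlated best with KO replicates 3, 2 and 1, so the numbers were not taken as pairs.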
